A study of Mus musculus with 2 samples.

Results

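The deep intragenic peaks are stretches of open chromatin that lie far inside long genes of mouse hepatic stellate cells. They are the entries in the peak list of replicate A that overlap an entry of replicate B by at least 1 bp, whose centre lies inside a protein-coding gene of mm10 and more than 20 kb from every protein-coding gene end. The rule took 4112 of the 23452 peaks of A that overlap B, called replicated peaks here, which is 17.5% (95% Wilson interval 17.05 to 18.03). It used position and overlap, and no value of the peak caller. The lists hold 36577 entries in A and 28794 in B.

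The assay was ATAC-seq, which reads accessible DNA through the insertion of adapters by Tn5 transposase. The nuclei came from livers of healthy mice fed chow, of strain C57BL6/JBomTac. They carried the transgene Tg(Lrat-cre)1Rshw together with the allele Gt(ROSA)26Sortm1(mCherry-Rpl10a-Flop)Kra, on B6.Cg. Cre was thus driven by Lrat, a gene of retinol storage, and nuclei were sorted on mCherry-RPL10A, so what was profiled is the tagged nuclei. The 2 samples, replicates A and B, form 1 group, so there is no comparison of conditions. Nothing in the labels ties them to separate animals, and their spread may be technical. In B, unlike A, each peak is named with a prefix that spells oil, which goes against the chow control of its label. The label was kept, and values without B are among the alternatives in processing. Read depth is unknown, since the lists give peaks and no reads, and intervals cover only the counting of peaks, starts or genes. In bulk libraries, a site open in few nuclei and a site weakly open in all nuclei cannot be told apart.

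Hepatic stellate cells store vitamin A, wrap the sinusoids of the liver as its pericytes, contract around them and lay down matrix after injury. Open sites inside genes are mostly of a few known kinds. Enhancers are bound by transcription factors and can act on their host gene or on another gene. Internal promoters give shorter transcripts of the host gene or start a separate RNA, often on the opposite strand. Sites of the looping factor CTCF are open in many cell types. Long genes have most of their length in introns, and they are common among genes of cell adhesion, the cytoskeleton, signalling and neurons.

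Annotated starts inside genes are where these data can be set beside sequence. The following windows are the 250 bases before 6 transcript starts that lie deep inside a long gene and that a deep intragenic peak covers, from RefSeq in GRCm38.p6, which mm10 shares. They were picked after their values were seen, as the best-ranked covered starts of the host gene (Fam222b and Smarcal1), the internal start of a retinoic acid receptor (Rarb), and starts of RNAs other than the host transcript (Kcnq1ot1, Airn and Dnm3os). Each runs 5′ to 3′ on the strand of its transcript. Capitals mark CpG dinucleotides, except in Rarb, where they mark the retinoic acid response element known from this promoter: GGTTCA, any 5 bases, then AGTTCA.
Fam222b, chr11:78115376-78115625, plus strand: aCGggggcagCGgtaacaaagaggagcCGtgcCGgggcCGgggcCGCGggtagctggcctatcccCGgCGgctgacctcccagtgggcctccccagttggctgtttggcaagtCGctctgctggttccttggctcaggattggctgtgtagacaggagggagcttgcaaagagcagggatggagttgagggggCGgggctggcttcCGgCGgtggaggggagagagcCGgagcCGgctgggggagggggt
Smarcal1, chr1:72583001-72583250, plus strand: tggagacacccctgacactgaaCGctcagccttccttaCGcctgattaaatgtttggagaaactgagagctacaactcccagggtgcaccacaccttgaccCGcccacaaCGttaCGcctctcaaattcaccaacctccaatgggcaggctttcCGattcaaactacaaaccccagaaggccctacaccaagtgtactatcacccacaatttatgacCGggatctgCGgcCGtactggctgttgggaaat
Rarb, chr14:16575477-16575726, minus strand: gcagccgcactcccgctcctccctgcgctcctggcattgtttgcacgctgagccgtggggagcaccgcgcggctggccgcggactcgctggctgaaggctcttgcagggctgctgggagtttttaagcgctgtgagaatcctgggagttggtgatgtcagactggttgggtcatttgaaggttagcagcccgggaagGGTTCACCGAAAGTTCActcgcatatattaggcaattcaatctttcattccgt
Kcnq1ot1, chr7:143296548-143296797, minus strand: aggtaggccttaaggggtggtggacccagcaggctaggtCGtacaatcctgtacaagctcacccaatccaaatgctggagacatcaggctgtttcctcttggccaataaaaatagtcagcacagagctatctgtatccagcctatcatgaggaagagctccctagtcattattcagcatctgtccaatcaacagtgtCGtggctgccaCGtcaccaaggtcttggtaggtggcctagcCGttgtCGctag
Airn, chr17:12741061-12741310, plus strand: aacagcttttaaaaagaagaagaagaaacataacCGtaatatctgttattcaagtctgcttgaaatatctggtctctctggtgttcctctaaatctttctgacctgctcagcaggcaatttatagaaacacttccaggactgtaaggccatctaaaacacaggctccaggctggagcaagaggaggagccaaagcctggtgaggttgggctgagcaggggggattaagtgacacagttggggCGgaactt
Dnm3os, chr1:162217373-162217622, plus strand: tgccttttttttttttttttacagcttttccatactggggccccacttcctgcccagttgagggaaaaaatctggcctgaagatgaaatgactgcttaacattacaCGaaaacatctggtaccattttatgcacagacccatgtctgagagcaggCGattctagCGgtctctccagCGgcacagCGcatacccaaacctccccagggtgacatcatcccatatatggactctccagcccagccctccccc

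The windows differ in base composition. That of Fam222b has 68.8% GC and 15 CpG dinucleotides, that of Rarb has 58.0% GC and 16, and that of Airn has 45.6% GC and 2. The peak at Fam222b, on chromosome 11 from 78115383 to 78115640, holds 243 of the 250 bases printed. Its fold enrichment, the linear ratio over local background given by the authors' peak caller, was 26.8 in A and 21.7 in B. The peak over the internal start of Smarcal1, which encodes an annealing helicase, lies on chromosome 1 from 72583010 to 72583337. It reached 22.8 in A and 22.7 in B, and its summit lay 73 bases before the start in A and 90 in B.

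Rarb encodes retinoic acid receptor beta, a nuclear receptor whose shorter transcripts start at an internal promoter that retinoic acid is known to induce through the element in capitals. In these libraries the peak over that start, on chromosome 14 from 16575426 to 16575713, reached 13.1-fold enrichment in A and 13.5-fold in B. The element lies 53 to 37 bases before the start and inside the peak, whose summit lay 98 bases before the start in A and 97 in B. The letters of this element occurred in 1 of 188 windows at covered deep starts, in 0 of 2023 windows at deep starts not covered, and in 2 of 32851 windows over all starts, searched on both strands over the 250 bases before and 50 after each start. The 1 hit at covered starts is the Rarb window itself, the promoter these letters are known from. That hit was fixed in advance, so these counts do not tell covered starts from others. The consensus form of such an element, AGGTCA repeated after any 5 bases, occurred in 0 of 188, 0 of 2023 and 3 of 32851.

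Rarb held 10 deep intragenic peaks in all, spread over 651 kb from 16430839 to 17082331. By their distance from the gene start in the direction of transcription, they lay between 311 and 603 kb. These distances run from the outer end of the RefSeq span, which includes predicted models and is longer than in curated annotations. The strongest in A, at 387 kb on chromosome 14 from 16695554 to 16695882, reached 18.3 in A and 11.9 in B. The strongest in B, at 347 kb, had 12.2 in A and 14.0 in B. The weakest in both lay at 527 kb, with 8.53 in A and 5.82 in B. The peak over the internal start therefore stood second in A and second in B among the 10.

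**Figure D1:**
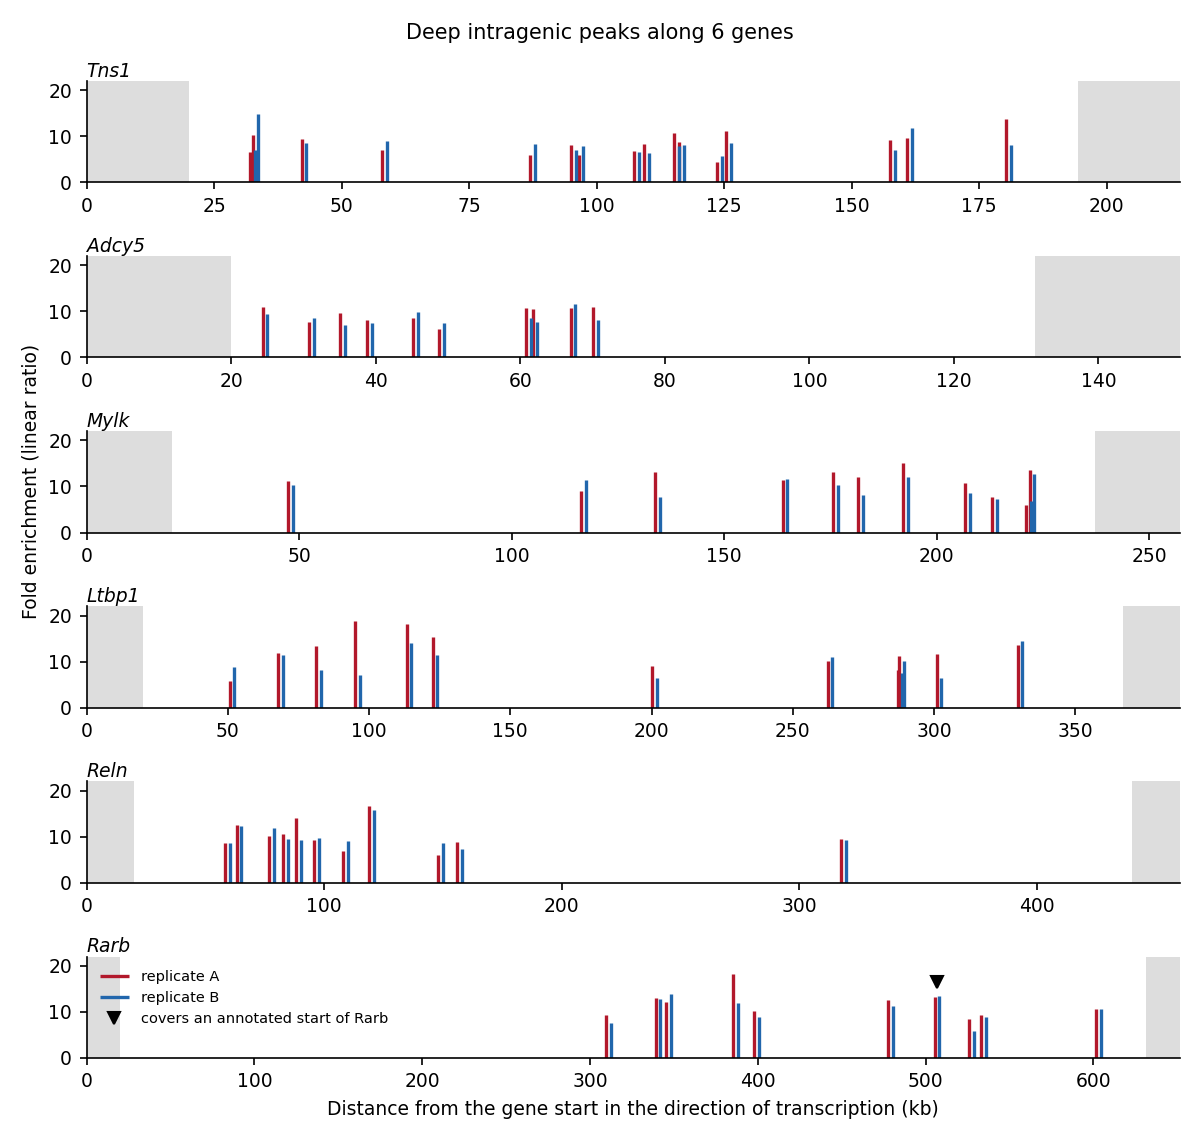
Fold enrichment (linear ratio, vertical axis) of each deep intragenic peak in replicate A (red) and replicate B (blue), against its distance in kb from the gene start in the direction of transcription, for 6 genes chosen after their values were seen. Grey marks the 20 kb at either end of the gene; the triangle in the Rarb panel marks the peak over an annotated start, with 13.1 in A and 13.5 in B. Within these RefSeq spans, peaks fill the first part of Adcy5 and Reln and the last part of Mylk and Rarb. The span of Rarb is longer than in curated annotations, which moves its gene start outward.

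As a class, the deep intragenic peaks were weaker than the other replicated peaks in both replicates. Their median fold enrichment was 10.6 in A (quartiles 8.40 and 13.3) and 9.25 in B (7.69 and 11.4). The other 19340 replicated peaks had medians of 12.2 in A (9.25 and 16.2) and 10.8 in B (8.36 and 14.3). By rank among all entries of the list, the median deep intragenic peak stood at percentile 55.5 in A and 46.4 in B, against 67.3 in A and 61.0 in B for the others. The gap was widest against peaks within 1 kb of a gene end, which had medians of 14.4 in A and 13.03 in B. Replicated peaks more than 20 kb outside genes were close to the deep intragenic ones, with 10.8 in A and 9.42 in B. The deep intragenic peaks were also somewhat narrower, with a median width of 255 bp in A against 271 bp for the other replicated peaks.

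Deep intragenic entries were found in both lists less often than entries at gene ends, also within each quartile of −log10 q of A. Of the 7300 entries of A at deep intragenic positions, 4112 overlapped B, which is 56.3% (55.2 to 57.5). At gene ends the share was 83.9% (83.1 to 84.6), and outside genes by more than 20 kb it was 56.1% (54.9 to 57.2). Seen from B, 75.4% of 5483 deep intragenic entries overlapped A, against 90.5% of 9619 at gene ends. Within the same quartile of −log10 q of A, the shares of deep intragenic entries were 31.0, 49.1, 76.1 and 95.2% in the first to the fourth quartile, against 44.8, 64.7, 87.7 and 99.2% at gene ends. The intervals of the 2 classes did not overlap in any quartile. Strength within a quartile was not matched. Entries outside genes by more than 20 kb were shared much like the deep intragenic ones, at 31.4, 47.1, 73.9 and 94.5%. The 3188 deep intragenic entries found in A alone were weaker and narrower than those shared, with a median fold enrichment of 7.96 against 10.6 and a median width of 189 bp against 255 bp.

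The order of the deep intragenic peaks by fold enrichment was less alike in A and B than that of other peaks. Spearman's rank correlation between A and B was 0.529 across the 4112 deep intragenic peaks, against 0.705 across the other 19340 replicated peaks. It is a description of these libraries, since peaks share a library and local background. At gene ends it was 0.757, and outside genes by more than 20 kb it was 0.540.

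**Figure D2:**
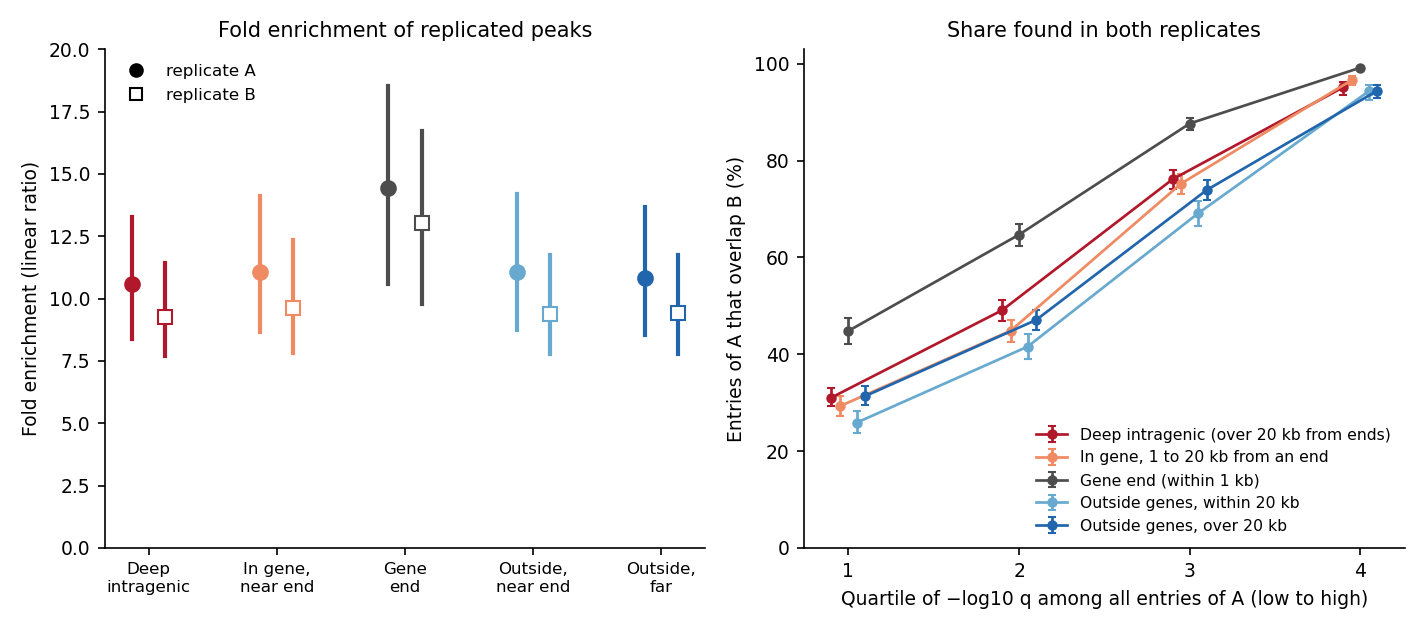
Left, median fold enrichment (linear ratio) of replicated peaks with quartiles as bars, by position class, in replicate A (filled circles) and replicate B (open squares); the deep intragenic medians are 10.6 and 9.25, and those at gene ends 14.4 and 13.03. Right, percent of entries of A that overlap B by quartile of −log10 q of A, with 95% Wilson intervals; deep intragenic entries lie below gene ends in every quartile.

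Per base, the inside of long genes more than 20 kb from gene ends held more replicated peaks than intergenic DNA beyond the same 20 kb. Distances beyond 20 kb were not matched. Bases inside a protein-coding gene and more than 20 kb from every end, called deep territory here, sum to 583 Mb and held 7.05 peaks per Mb (exact Poisson interval 6.84 to 7.27). Intergenic DNA more than 20 kb from every gene end held 3.20 per Mb (3.10 to 3.30) over 1255 Mb, which includes assembly gaps. The ratio was 2.21 (2.11 to 2.31), and 2.07 without chromosome Y. It was above 1 on all 19 autosomes, from 1.27 on chromosome 13 to 2.76 on chromosome 19. Chromosome X had the fewest deep intragenic peaks per Mb of the autosomes and X, 1.86, against 5.21 to 8.99 on the autosomes, and its ratio over intergenic DNA was 2.11.

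The peaks were spread over many genes, and a few genes held many. Of 5858 protein-coding genes with any deep territory, 1611 held 1 or more deep intragenic peak, a background of 27.5%. Of these host genes, 735 held 1 peak, and 233 held 5 or more and with them 40.9% of all deep intragenic peaks. There are 13 peaks that lie in 2 overlapping genes, and each is counted in both. The 37 genes with 10 or more are led by Frmd4a, which encodes a scaffold protein of cell polarity, and Zfhx3, which encodes a homeobox and zinc finger transcription factor, with 19 each. Host genes had a median length of 139 kb, against 71.6 kb for genes with deep territory and no deep intragenic peak.

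Next in number was Tns1, with 16 peaks. It encodes tensin 1, which links actin filaments to integrins at focal adhesions, and its deep territory is only 174 kb. Their fold enrichment was low for the class, between 4.35 and 13.7 in A with a median of 8.54, and between 5.65 and 14.8 in B with a median of 7.98. Nfia, which encodes a transcription factor of the nuclear factor I family, held 15, with medians of 9.67 in A and 9.20 in B. Wwox, which encodes an oxidoreductase with WW domains, also held 15, over 873 kb of deep territory.

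Among the following genes, several encode signalling and anchoring proteins. Pakap, of a protein kinase A anchoring protein, Arhgap26, of a GTPase activating protein, and Prkce, of protein kinase C epsilon, held 14 each. The peaks of Pakap were strong, with medians of 12.9 in A and 10.5 in B. Nav2, of a neuron navigator protein, Maml3, of a Notch coactivator, Gse1, and Tshz2, of a zinc finger protein, held 13 each. In Zfhx3, entries also appeared in 1 list alone, 17 in A and 3 in B, and in Frmd4a there were 11 in A alone and 6 in B alone.

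Number and density picked out different genes. By peaks per 100 kb of deep territory, among genes with 3 or more, the densest were Acer2, which encodes an alkaline ceramidase, with 4 peaks or 22.01 per 100 kb, and St3gal2, which encodes a sialyltransferase, with 3 peaks or 20.96 per 100 kb. Tnxb, which encodes the matrix glycoprotein tenascin X, followed with 4 peaks, then Zcchc24 with 3, and Scarb1, which encodes the scavenger receptor that takes up lipid from high density lipoprotein, with 4. These genes have between 14.3 and 24.0 kb of deep territory, so each rests on few peaks. Tns1 had 9.18 per 100 kb over a territory many times as long.

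The longest genes were poor in deep intragenic peaks. Genes with under 50 kb of deep territory held 9.05 peaks per Mb (8.32 to 9.82), those with 50 to 100 kb 9.92, those with 100 to 200 kb 9.65, those with 200 to 400 kb 7.20, and those with 400 kb or more 3.73 (3.47 to 4.01). The largest deep territories belong to Ptprd, of a receptor tyrosine phosphatase, Dmd, of dystrophin, and Cntnap2, of a neuronal adhesion protein. Ptprd and Cntnap2 held 0 over 2231 and 2201 kb, and Lrp1b, of a lipoprotein receptor family member, held 0 over 2018 kb. Dmd held 5 over 2217 kb. Its peaks had a fold enrichment between 4.67 and 11.4 in A and between 5.88 and 9.36 in B.

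**Figure D3:**
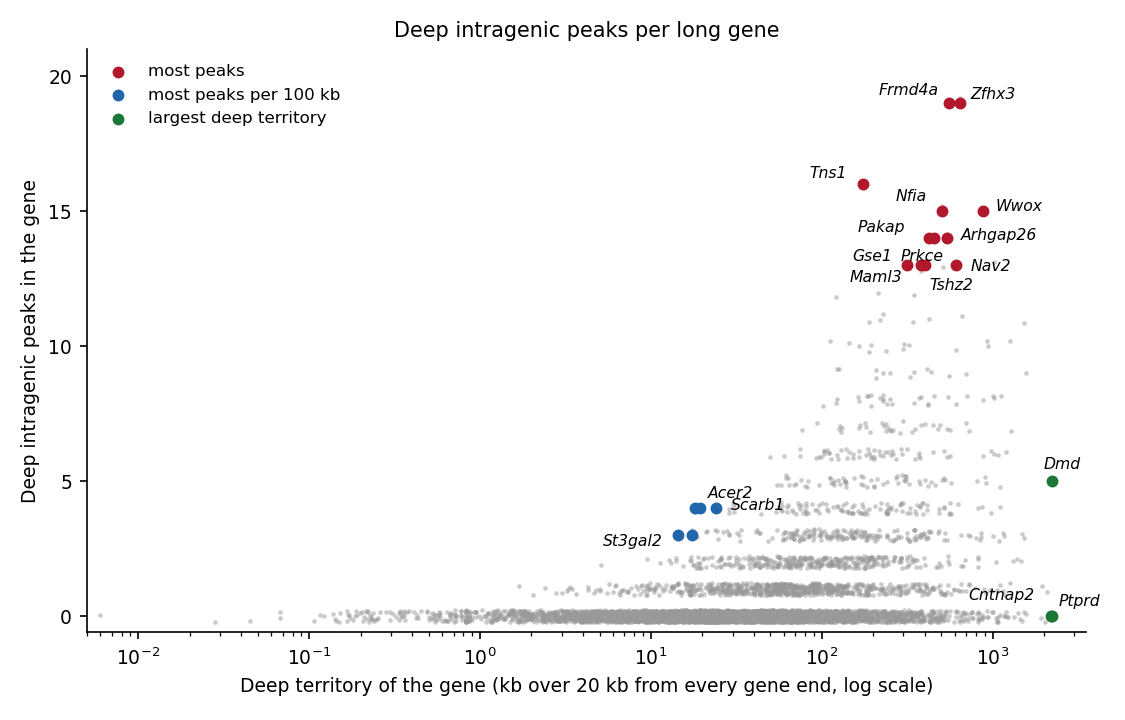
Number of deep intragenic peaks in each of 5858 genes against the deep territory of the gene in kb (log scale), with a small vertical scatter on the grey points. Named points are genes with the most peaks (red), the most peaks per 100 kb (blue; Tnxb and Zcchc24 are not labelled) and the largest deep territory (green); Frmd4a and Zfhx3 stand at 19, while Ptprd and Cntnap2 stand at 0.

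The strongest deep intragenic peaks lay in genes of varied function. By the mean rank of fold enrichment over both replicates, the first 2 were very short entries, of 39 bp in Chl1, an adhesion gene, and of 22 bp in 2210408I21Rik. They had 41.6 and 31.7 in A and 42.8 and 40.5 in B, and were the only members under 100 bp wide, while 90% of the class are at least 171 bp wide. The next was a peak of 367 bp in Egfr, which encodes the receptor of epidermal growth factor, on chromosome 11 (16800523 to 16800889), with 25.2 in A, 22.4 in B, at 48.5 kb from the gene start.

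After Egfr came Fam222b, described above. Gphn, of the scaffold protein gephyrin, had 34.1 in A and 21.2 in B, and Peak1, of a pseudokinase at focal adhesions, had 31.3 in A and 20.1 in B. The strongest peak of Foxp1, of a forkhead transcription factor, had 23.2 in A and 22.3 in B. Smarcal1, Rere, of a transcriptional corepressor, and Celf2, of an RNA-binding protein, completed the first 10, with 22.7 to 25.05 in A and 20.3 to 22.7 in B. The peak of Celf2 lay 320.1 kb from the nearest gene end, and that of Fam222b only 20.8 kb.

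Genes listed for stellate cell functions held deep intragenic peaks more often than long genes at large. In each of 10 such lists, the share of long genes with a deep intragenic peak lay above the 27.5% of all genes with deep territory. These lists were drawn up with earlier results of these data known, so their shares are a description and no independent support. The shares ran from 44.4% of 27 growth factor genes to 80% of 30 actin and focal adhesion genes. In 9 of the 10 lists the 95% Wilson interval lay wholly above 27.5%, and in the retinoid list it began at 26.7%. The lists differ in gene length, so the same was done with at least 100 kb of deep territory, where 51.9% of 1526 genes held a peak; all 10 lists lay above that share too, but with few genes each. There the intervals of 5 lists lay above 51.9% (transcription factors, actin and focal adhesion, cyclic nucleotide signalling, extracellular matrix and ion channels), and those of the other 5 held it. Lists of other cells lay above 51.9% too, with 2 of 2 hepatocyte genes, 60% of 5 endothelial genes and 62.5% of 8 cholangiocyte genes of that size. Of these genes with a peak, Egfr and Ghr (hepatocyte), Flt1 (endothelial), and Glis3 and Kcnma1 (cholangiocyte) are also in the 10 lists. With genes of several lists left out, at any size, 1 of 8 hepatocyte genes (12.5%, 2.24 to 47.1) held a peak. So did 3 of 13 endothelial genes (23.1%) and 3 of 10 cholangiocyte genes (30%). Outside the 10 lists, long neuronal genes had an interval wholly above 27.5% (42.5%, 28.5 to 57.8).

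Genes of contraction and adhesion had the highest share of the 10 lists, although not the highest density, and with at least 100 kb of deep territory cyclic nucleotide genes had a higher share (92.9% against 90.5%). Of 30 long genes of the actin cytoskeleton and focal adhesion, 24 held 118 deep intragenic peaks, or 15.7 per Mb (13.01 to 18.8), against 7.04 per Mb over all genes with deep territory. Mylk, of the myosin light chain kinase that triggers smooth muscle contraction, held 11, with fold enrichments between 6.07 and 15.1 in A and between 6.82 and 12.6 in B. Of these, 9 lay in the part from 134 to 222 kb of the 257 kb gene. Dlc1, of a GTPase activating protein, held 8. Sorbs2 and Limch1 held 0 over 280.1 and 271 kb, and Rock1 and Rock2, of kinases that promote contraction, also held 0.

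Transcription factor genes were likewise dense. Of 27 long genes in the list of stellate and mesenchymal factors, 20 held 98 peaks, or 15.4 per Mb (12.5 to 18.7). After Zfhx3, Nfia and Rarb came Foxp1 with 9, Rora, of a nuclear receptor, with 7, and Tcf4 and Ets1 with 5 each. Gata4, known as a factor that keeps stellate cells quiescent, held 3. Ebf1 and Tcf12 held 0 over 350.0 and 228 kb, and Zeb1, Zeb2 and Pparg held 0.

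Cyclic nucleotide signalling relaxes contractile cells, and 16 of 22 of its long genes held 74 peaks, or 11.6 per Mb (9.12 to 14.6). Adcy5, of an adenylyl cyclase, held 10 in only 111 kb of deep territory. All 10 lay between 24.7 and 70.4 kb from the gene start, and the remaining deep territory of the gene held 0. Their fold enrichment was even, from 6.19 to 11.0 in A and from 7.08 to 11.6 in B. Pde4d, of a cAMP phosphodiesterase, also held 10, over 1262 kb, with one reaching 20.04 in A, and Prkg1, of the cGMP-dependent protein kinase, held 8. Gucy1a2, of a subunit of soluble guanylyl cyclase, and Pde3b held 0.

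Matrix and TGF-beta genes followed. Of 31 long extracellular matrix genes, 19 held 70 peaks, or 14.2 per Mb (11.1 to 17.96). Ltbp1, of the protein that stores latent TGF-beta in the matrix, held 12. These lay between 51.4 and 330.5 kb from its start, and their fold enrichment ranged from 5.71 to 18.9 in A and from 6.37 to 14.5 in B. Adamtsl1 held 8 and Col25a1 held 7. Col4a1 and Col4a2, of the basement membrane collagen, held 6 each, while Col14a1 and Col4a5 held 0.

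In the TGF-beta and BMP list, 12 of 23 long genes held 33 peaks, or 17.4 per Mb (11.9 to 24.4), of which 12 were those of Ltbp1. Tgfbr3, of betaglycan, held 4 and Smad3, of a signal transducer of the pathway, held 3, while Bmpr1b, of a BMP receptor, and Smurf2, of a ubiquitin ligase, held 0. The retinoid list also takes in the nuclear receptor genes Rora and Rorb. In it, 5 of 9 long genes held 23 peaks, with 10 in Rarb and 7 in Rora. Rarb, Rora and Rxra are also in the transcription factor list. With genes of several lists left out, 2 of 6 genes of the retinoid list (33.3%, 9.68 to 70.0) held 4 peaks. Aldh1a1, of a retinal dehydrogenase, held 3 weak ones, with medians of 7.14 in A and 6.25 in B, and Rorb and Aldh1a2 held 0.

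Of 13 long genes of stellate cell identity, 7 held 43 peaks, or 10.6 per Mb (7.69 to 14.3). Reln, of the secreted glycoprotein reelin, held 11. Of these, 10 lay between 59.4 and 157 kb from its start and 1 at 319 kb, in a gene of 460.3 kb. Ntm and Nrxn3, of cell adhesion proteins, held 10 and 9, and Ank3 held 8. Lama1 and Abcc9 held 2 each, Ntrk2 held 1, and Col14a1 and Hgf, of hepatocyte growth factor, held 0. The 7 genes include none of the short defining genes such as Lrat, which have no deep territory.

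The lists of ion channels, growth factors and axon guidance showed a smaller density. Of 27 long ion channel and calcium genes, 16 held a peak, at 8.76 per Mb (6.75 to 11.2). Itpr1, of a calcium release channel, held 10, Cacna1c and Cacna2d1, of subunits of voltage-gated calcium channels, held 8 and 7, and Ryr2 and Cacna1d held 0. Of 27 growth factor genes, 12 held a peak, at 7.04 per Mb (4.64 to 10.2), led by Igf1r with 8, with Insr and Egfr at 3, while Erbb4 and Ntrk3 held 0. Of 30 axon guidance and adhesion genes, 19 held a peak, but at 4.72 per Mb (3.61 to 6.07), under the density of all genes. Robo2 and Robo1, of Slit receptors, held 11 and 6, Sema6d held 7, and Ptprd and Plxdc2 held 0.

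The lists of other cell types hold fewer long genes. Peaks were held by 2 of 13 Kupffer and myeloid genes (15.4%, 4.33 to 42.2), 4 of 16 sinusoidal endothelial genes (25%, 10.2 to 49.5), 3 of 11 genes of portal, muscle and mesothelial cells, 3 of 10 hepatocyte genes, 6 of 18 lymphocyte genes and 5 of 13 cholangiocyte genes. Each of these 6 intervals held the 27.5% of all genes. The density in these lists ran from 3.38 per Mb in the Kupffer and myeloid list to 10.9 per Mb (4.002 to 23.7) in the hepatocyte list and 11.3 per Mb (6.47 to 18.4) in the endothelial list. These last values lie above the 10.6 per Mb of stellate cell identity genes, with intervals that overlap. With genes of several lists left out, the hepatocyte list held 4.93 per Mb (0.125 to 27.5) and the endothelial list 12.6 (7.07 to 20.8). The stellate cell identity list then held 11.2 (7.92 to 15.4). Whether nuclei of other cells gave any of these peaks was not tested.

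Within those lists the peaks sat in few genes. Among endothelial genes, Ldb2, of a cofactor of LIM domain factors, held 10 of the 16 peaks, Dock9 held 4 and Flt1, of a VEGF receptor, held 1 with 14.9 in A and 22.3 in B, while Erg, Stab2, Tek, Kdr and Cdh5 held 0. Among myeloid genes, Dock10 held 3 and Mertk 1, while Dock2, Fyb, Adgre1 and Ptprc held 0. Hepatocyte genes had 3 in Egfr, 2 in Ghr and 1 in Hnf4a, and 0 in Cps1 and Acsl1. Lymphocyte genes had 8 in Arhgap15, 5 in Bach2 and 4 in Skap1, and 0 in Ebf1 and Bank1. Cholangiocyte genes had 5 in Thsd4 and 3 each in Glis3 and Bicc1, and 0 in Pkhd1 and Sorbs2. In the list of portal and muscle cells, Cacna1c, also counted above, held 8, Myh11, of smooth muscle myosin, held 4, and Ldb3 held 3, while Slit2 and Gpm6a held 0.

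Long genes best known from neurons were the sparsest per base. Of 40 such genes, 17 held a peak (42.5%, 28.5 to 57.8), an interval wholly above the 27.5% of all genes with deep territory. The share was under the 51.9% of all genes with at least 100 kb of deep territory, which the interval held. The 48 peaks of these neuronal genes over 41.0 Mb come to 1.17 per Mb (0.862 to 1.55), against 7.04 per Mb over all genes. Genes of like size were themselves sparser than that. All genes with at least 100 kb of deep territory held 6.24 per Mb, and those with 400 kb or more held 3.73 per Mb (3.47 to 4.01). Grid1, of a glutamate receptor family member, held 7, and Ptprt, of a receptor phosphatase, held 5. In Grid1 the median fold enrichment was 9.27 in A and 11.2 in B, and in Ptprt it was 12.7 in A and 9.67 in B. The deep intragenic peak farthest from any gene end, 984 kb away, lies in another of these genes, Lsamp.

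**Figure D4:**
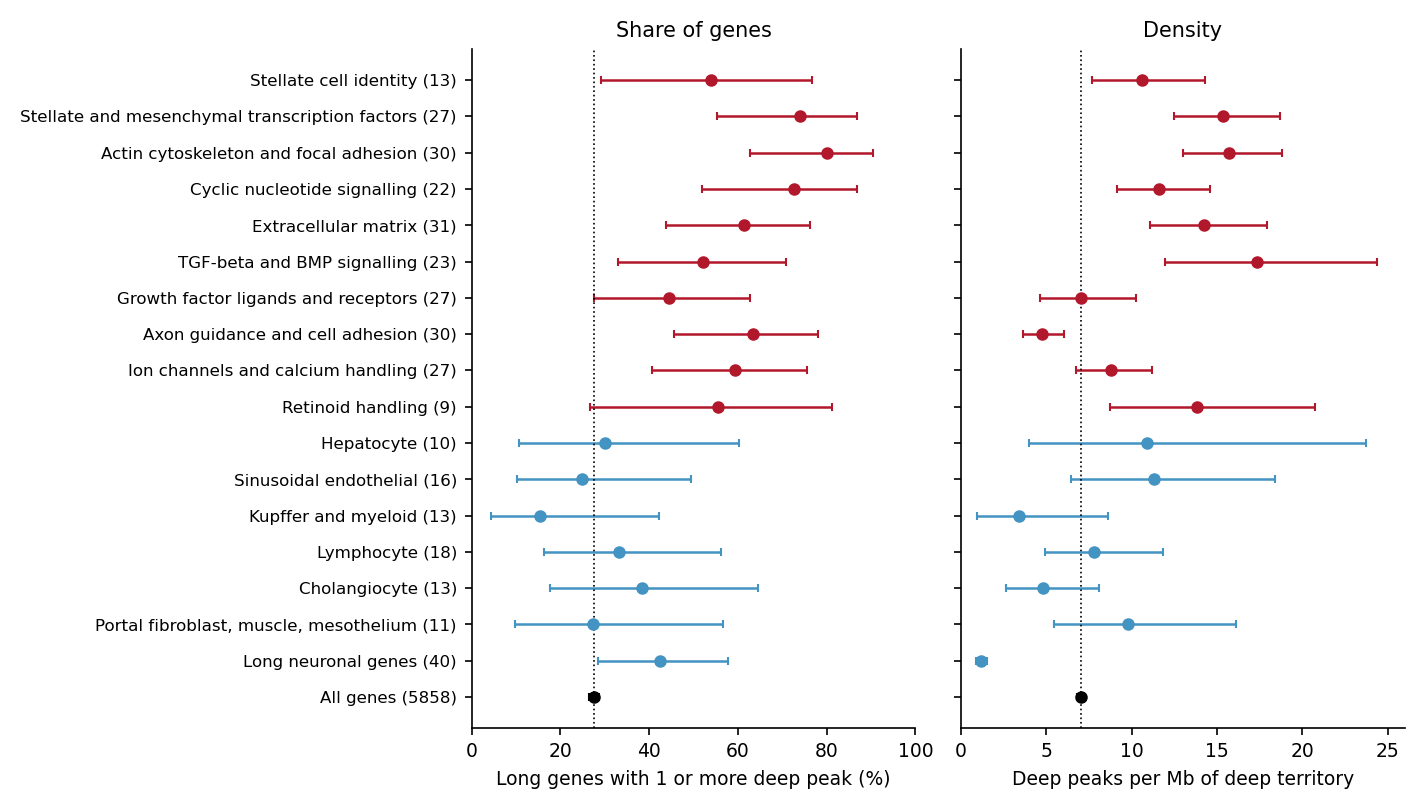
Percent of long genes with 1 or more deep intragenic peak (left, 95% Wilson intervals) and deep intragenic peaks per Mb of deep territory (right, exact Poisson intervals) for 10 lists of stellate cell functions (red), 7 lists of other cells (blue) and all genes with deep territory (black; dotted line). Numbers of long genes are in parentheses. All red points on the left lie above 27.5%, and the density of long neuronal genes, 1.17 per Mb, is the lowest.

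Some deep intragenic peaks had a close neighbour in the same gene. The spacing of other replicated peaks was not measured, so the following values describe this class only. Between neighbours in a gene the median gap was 18.04 kb (quartiles 7.99 and 41.8 kb, 2514 pairs). With gaps of up to 10 kb joined, 1383 of the 4112 peaks (33.6%) fell into 612 runs of 2 or more. The longest runs had 6 peaks, in Adcy5 over 24.6 kb and in Tns1 over 18.5 kb. Runs of 5 lay in Dlgap1, of a postsynaptic scaffold protein, in Arhgap10, of a GTPase activating protein, and in Arhgef3, of a guanine nucleotide exchange factor.

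The run in Tns1, on chromosome 1 from 73998432 to 74016949, holds peaks with fold enrichments of 4.35 to 11.0 in A and 5.65 to 8.54 in B. Each of its peaks is thus under the median of other replicated peaks of 12.2 in A and 10.8 in B. The run in Adcy5, on chromosome 16 from 35179068 to 35203670, has 6.19 to 11.0 in A and 7.08 to 9.78 in B. In Dlgap1 the run starts 751 kb into the gene and reaches 13.4 in A and 10.6 in B.

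Along the host gene the peaks were split about evenly. The strand is known for 4612 of the 5858 genes with deep territory. Of 3161 peaks in such genes, 1592 (50.4%, 48.6 to 52.1) lay nearer to the start of their gene than to its other end, where 50.1% of the deep territory lies. With each gene cut into 10 equal parts, the density was 4.57 per Mb (3.61 to 5.70) in the first part and 5.78 per Mb (4.69 to 7.03) in the last. In the 8 parts between them it ran from 6.44 to 7.73 per Mb. Only genes of over 200 kb have deep territory in the first and the last part.

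The median distance to the nearest gene end was 51.5 kb, and 919 peaks (22.3%) lay more than 100 kb and 250 peaks (6.08%) more than 200 kb from every end. At the threshold, the nearest members inside it lay in Ambra1 at 20.021 kb, with fold enrichments of 10.8 in A and 9.12 in B, and in Babam2 at 20.031 kb, with 13.1 in A and 7.87 in B. The nearest replicated peaks outside it lay in Vps13d at 20 kb, with 16.4 in A and 10.6 in B, and in Gbp8 at 19.994 kb, with 10.2 in A and 8.001 in B.

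Annotated transcript starts inside deep territory marked a minority of the peaks, which was stronger than the rest of the class. Deep territory holds 2211 such starts, of which a replicated peak covered 188 (8.50%, 7.41 to 9.74). They are internal to RefSeq spans that include predicted models, so some may be the main start of their gene. Starts of the host gene itself were covered more often, 149 of 936 (15.9%, 13.7 to 18.4), than starts of another gene, 39 of 1275 (3.06%, 2.25 to 4.15). Of starts within 1 kb of a gene end, 36.0% of 17382 were covered. Within 1 kb of an internal start the density of deep intragenic peaks was 62.8 per Mb (55.3 to 71.1), against 6.67 per Mb (6.46 to 6.88) in the other deep territory, a ratio of 9.42 (8.26 to 10.7).

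These peaks are still few: 172 of 4112 (4.18%, 3.61 to 4.84) cover an internal start. Their median fold enrichment was 11.99 in A and 11.1 in B, against 10.6 in A and 9.20 in B for the deep intragenic peaks that cover none. Replicated peaks outside the class had medians of 12.2 in A and 10.8 in B, and those at gene ends 14.4 in A and 13.03 in B. Of the 100 best-ranked, 18 cover a start. Only 157 deep intragenic peaks (3.82%) lie within 1 kb of an end of a noncoding gene.

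Several covered starts of host genes belong to regulators. Runx1, of a transcription factor of blood and mesenchyme, had 14.2 in A and 14.0 in B at a start 129 kb into the gene. Arntl, of the clock factor BMAL1, had 16.5 in A and 15.3 in B. Mrtfa and Mrtfb, of actin-sensing coactivators of serum response factor, had 15.3 and 10.2 in A and 13.2 and 7.75 in B. Nedd9, of a focal adhesion scaffold, had 18.6 in A and 19.0 in B, and Pakap had 22.4 in A and 15.9 in B. Weaker ones lay in Dmd, with 8.46 in A and 7.49 in B at 2234 kb, in Pde4b, with 6.01 and 7.75, and in Robo1 and Robo2, with 8.77 and 11.1 in A and 12.2 and 10.1 in B. The genes of this paragraph were chosen after their values were seen.

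Starts of another RNA include well-known antisense transcripts. Kcnq1ot1, the imprinted antisense RNA inside the potassium channel gene Kcnq1, had the best mean rank of them over both replicates, with 25.1 in A and 15.8 in B (chromosome 7, 143296488 to 143296827). In B, 5 other such starts were higher, up to 16.7 at Gm46751. The summit at Kcnq1ot1 lay 84 bases before the start in A and 94 in B. Airn, the imprinted antisense RNA inside Igf2r, had 9.05 in A and 13.7 in B. That peak is the 1 deep intragenic peak of Igf2r, and its summit lay 5 bases after the start in A and at the start in B. Dnm3os, which gives rise to microRNAs from inside the dynamin gene Dnm3, had 14.3 in A and 11.7 in B. The lists do not tell on which allele or strand the chromatin was open.

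Covered internal starts were richer in GC and CpG than those not covered. Over windows of 250 bases before to 50 after the start, the median GC content was 59.2% at covered starts and 48.0% at starts not covered, and the median ratio of observed to expected CpG was 0.628 and 0.249. With the starts cut into 3 groups of about equal size by GC content, 1.49, 5.23 and 19.4% were covered, from the lowest group to the highest. Among starts of the host gene, covered windows had 61.3% GC and those not covered 49.7%, and among starts of another gene 51.7% and 47.0%.

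Short motifs differed along with base composition, which was not separated from them. The ETS letters CCGGAA, on either strand, were in 18.1% of the 188 covered windows (13.2 to 24.2), in 5.98% of the 2023 windows not covered (5.03 to 7.10) and in 14.9% of all 32851 windows of the same length. AGGGGGCG, from the core of the CTCF motif, was in 10.6% of covered windows (6.99 to 15.9), 1.98% of those not covered and 6.07% of all. The AT-rich GATA letters AGATAA ran the other way, with 3.19% of covered windows (1.47 to 6.79), 14.2% of those not covered and 11.2% of all. RUNX letters, TGTGGT, were in 11.2% of covered windows, 19.5% of those not covered and 16.8% of all. The intervals of covered and not covered windows overlapped for the AP-1 letters TGANTCA, with 6.38 and 9.10% and 7.81% of all, and for the TEAD, E-box, SOX, MEF2 and NFI letters.

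**Figure D5:**
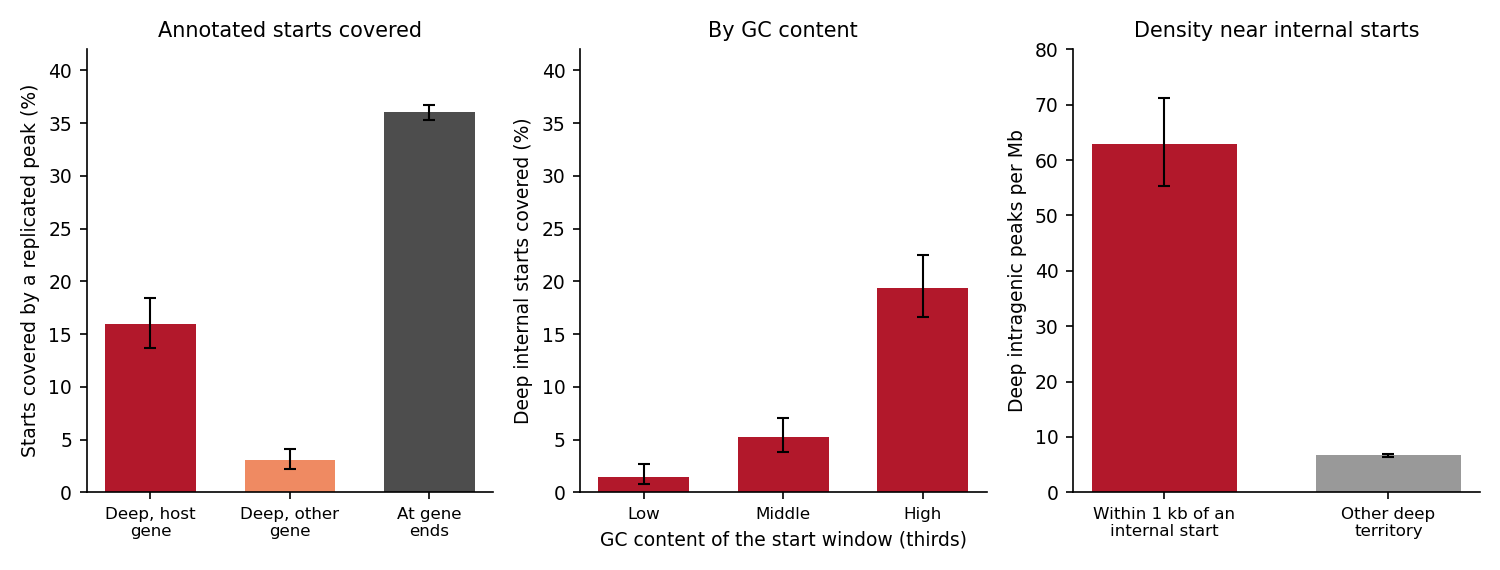
Left, percent of annotated starts covered by a replicated peak, for deep starts of the host gene (15.9%), deep starts of another gene (3.06%) and starts within 1 kb of a gene end (36.0%). Middle, percent of deep internal starts covered, in 3 groups by GC content of the start window (1.49, 5.23 and 19.4%). Right, deep intragenic peaks per Mb within 1 kb of an internal start and in the other deep territory. Bars on the columns are 95% Wilson intervals (left, middle) and exact Poisson intervals (right).

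Genes whose own outer start was open held more deep intragenic peaks per base. Where a replicated peak lay within 1 kb of the gene start, there were 9.93 deep intragenic peaks per Mb (9.44 to 10.4, 2141 genes), against 5.50 per Mb (5.23 to 5.77, 2471 genes) where none did, a ratio of 1.81 (1.68 to 1.94). The share of genes with a deep intragenic peak differed less, 28.5% (26.6 to 30.4) against 25.9% (24.2 to 27.6), and these intervals overlap. Genes with an open start have less deep territory, 155 Mb in all against 299 Mb. By deep territory, genes under 50 kb and those of 50 to 100 kb, 3439 of the 4612, showed a small gap with intervals that overlap: 13.5% (11.8 to 15.5) with an open start against 10.9% (9.28 to 12.7) without, and 39.0% (34.5 to 43.7) against 34.3% (30.1 to 38.8). In genes of 50 to 100 kb the densities were 10.1 per Mb with an open start and 9.94 without, and in genes under 50 kb 9.98 and 7.38. They were 13.4 and 7.68 per Mb with 100 to 200 kb, 10.0 and 5.21 with 200 to 400 kb, and 5.87 and 3.24 with 400 kb or more. Within genes of 100 to 200 kb the shares were 60.8% (54.5 to 66.8) with an open start and 39.9% (35.1 to 44.9) without. With 200 to 400 kb they were 70.5% (61.9 to 77.9) and 45.8% (39.3 to 52.5), and with 400 kb or more they were 79.5% (65.5 to 88.8) and 56.0% (48.6 to 63.1).

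Internal starts were covered about as often with an open outer start as without one, with intervals that overlap. Of 222 genes with an open outer start and an own deep internal start, 47 had that internal start covered (21.2%, 16.3 to 27.0), and of 455 such genes without an open outer start, 89 had (19.6%, 16.2 to 23.5). Many host genes had no replicated peak at the outer start. That start is the end of a RefSeq span, which may come from a predicted model. Whether these nuclei use the outer or an internal start was not tested. Among genes with 5 or more deep intragenic peaks, 82 of 180 (45.6%, 38.4 to 52.8) had an open outer start, against 1531 of 3363 (45.5%) of the genes with none.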

How the data were processed

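ATAC-seq was measured in 2 samples of 1 group. Per the submitters' processing notes, the build was mm10 and the tools were MACS2, HOMER, bedtools, Picard, SAMtools and STAR 2.7.0; their roles, and any shift for Tn5, are not given in the sources used here. For each sample, the authors deposited 1 peak list, called separately, each entry with a fold enrichment (a linear ratio over local background), a −log10 p-value and a −log10 q-value, a score and a summit offset. These are the authors' values on a scale of each library, so they were used to describe and rank peaks within a list; read depth is unknown. Among the members, 1 shares its name with another piece, 3 have the summit outside the entry and 2 are under 100 bp wide.

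Coordinates are 1-based, in mm10. Gene spans and promoter windows came from RefSeq tables of GRCm38.p6; all 482 list genes matched. Windows around summits had been planned, and without a genome sequence they were replaced by windows at annotated starts. Exons and introns were not told apart. Gene spans include predicted models, so some genes, such as Rarb and Pakap, are longer than in curated annotations. Outer starts and distances from the gene start depend on these spans. No test was run: with 1 group there is no comparison of conditions, and peaks are not replicates. Counts have 95% Wilson or exact Poisson intervals, and ratios of densities exact binomial ones. The lists overlap in 31 genes.

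The members, lists and tests were chosen with earlier results of these data known. Named genes are the 12 hosts with most peaks, the 10 best-ranked peaks, up to 3 genes with most peaks and up to 2 with none per list, the 5 densest genes, the longest runs, the largest territories, and the peaks nearest the threshold; further genes, the genes of the maps and those at internal starts were chosen after their values were seen. The steps were tested on simulated placements. The tools were matplotlib 3.10.9, scipy 1.17.1, pandas 2.3.3, numpy 2.4.6 and Python 3.11.15. Some genes that the naming rule takes are not reported here.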

Additional observations from a re-analysis of the deposited data

How the results depend on the processing

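Every alternative left the deep intragenic peaks weaker than the other replicated peaks, denser than far intergenic DNA and enriched at internal starts. All 10 lists of stellate functions lay above all long genes in each alternative except 50 kb from gene ends, where 9 did. Sizes often moved. Of the main values, 50 moved out of the range set for each result and 75 stayed in it. Of the values of single lists, 28 moved, 2 reversed and 191 stayed. Against all long genes, the sign changed in 7 of 13 alternatives for the list of portal, muscle and mesothelial cells. It changed in 6 for the endothelial list and in 5 for the hepatocyte list. Entries above the median −log10 q gave 1433 deep intragenic peaks, 12.1% of replicated peaks and a peak in 15.7% of long genes; the shared share was 50.5%, 31.9 points under gene ends, and the percentile gap was -7.90. The density ratios were 2.09 over intergenic DNA, 13.1 near internal starts and 1.62 for open against other gene starts. With the 10000 strongest entries these were 639, 8.88%, 8.69%, 29.4 points, -4.67, 2.04, 17.8 and 1.4996, and 52.6% of peaks lay nearer the gene start than the other end. At 10 kb from gene ends the share of replicated peaks was 23.3%, that of long genes 23.2% and the density ratio 2.10. At 50 kb there were 2120 peaks, 9.04% of replicated peaks, in 33.4% of long genes, with ratios of 2.34 over intergenic DNA and 2.06 by gene start, and growth factor genes turned to -9.83 points below all long genes. With ends of noncoding genes added, the share was 12.2% of replicated peaks and 24.3% of long genes, the gap in sharing 23.6 points, and the ratios 3.06, 17.4 and 2.03. Overlap of at least 0.5 of both entries gave 51.8% shared, 29.4 points under gene ends. With coordinates of B, 75.4% were shared, 15.2 points under gene ends, and the percentile gap was -14.4. Without chromosome Y, an alternative chosen after seeing the data, the ratio over intergenic DNA was 2.07. Joining gaps up to 5 and 20 kb put 17.7 and 51.7% of peaks into runs. Start windows of 200 bp gave a GC gap of 14.0 points, against 11.2 with 300 bp. Long neuronal genes lay above all long genes in share, but 9.40 points below (-9.40) among genes with 100 kb or more.

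Leaving out replicate A or B, each list alone, gave 5483 to 7300 deep intragenic peaks, 19.0 to 19.96% of entries, a peak in 32.1 to 36.3% of long genes, a percentile gap of -14.4 to -11.5, and density ratios of 2.19 to 2.23 over intergenic DNA, 7.10 to 8.69 near internal starts and 1.89 to 1.97 by gene start; the GC gap was 8.67 to 12 points. The share found in both lists has no value then. The shares nearer the gene start were 50.4 to 50.5%, and the GC alternative in windows around summits was not run. No paired analysis was possible because there is 1 group. Without read depth, a site missing from a list cannot be told from one under its threshold.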
